A study of Mus musculus with 16 samples.

Results

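The comparison covered 7 mice of the 16 in the series, the control animals with a loxP-flanked *Tnfr2* gene (Tnfr2-f/f) and no Cre, of which 3 had received dextran sulfate sodium (DSS) in their drinking water and 4 had received water alone. The members were chosen by treatment and genotype as the sample labels give them, and the genes by their level: 11241 of the 22396 gene symbols in the tables had a mean of at least 1 TPM (a level per transcript length, as a share of the library) over the 7 mice and were tested. *Tnfr2* is the study's name for *Tnfrsf1b*, the gene of tumor necrosis factor (TNF) receptor 2. By the labels, DSS was given at 3% for 6 days and every mouse was dissected on day 12. The study's methods give a higher DSS concentration, an age of 8 weeks, dissection of the injured regions of the DSS-treated colon, and uninjured animals taken at the start of the experiment. All 3 DSS-treated mice were female, replicates 1 and 2 from cage d and replicate 3 from cage c. Water-treated replicates 1 and 3 were males of cage a, and replicates 2 and 4 were females of cage b. No cage held both treatments and each treatment had a table of its own, so that treatment, cage and table cannot be told apart. The loxP-flanked allele was carried by all 7 mice, and an animal without it was not among them. Each library was made from cells of the distal colonic mucosa that had been digested with Liberase and sorted for EpCAM, a surface protein of epithelial cells.

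DSS damages the lining of the colon, and the days after its withdrawal are a time of ulcer healing. The colonic epithelium is renewed from stem cells at the crypt base, whose daughters divide and then become absorptive cells or secretory cells such as goblet, deep crypt secretory and enteroendocrine cells. An injured epithelium is known for secreting antimicrobial lectins and acute-phase proteins, for dividing more, and for carrying fewer markers of mature cells. The comparison asks which genes of the sorted cells differed in level 12 days after DSS was started.

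Depth is not given by TPM, and precision was limited by the number of mice. The listed transcripts of a mouse added up to between 487469 and 673971 TPM in the water-treated controls and between 607488 and 662142 TPM in the DSS-treated controls. The 2 tables had been normalised apart from each other, so all mice were rescaled to a common median ratio over 9936 genes that were above 0 in each of the 16 mice, with factors of 0.912 to 0.932 in the water-treated and 1.13 to 1.24 in the DSS-treated controls. Spearman's rank correlation of gene levels was 0.854 to 0.904 between water-treated mice, 0.87 to 0.921 between DSS-treated mice and 0.721 to 0.83 between mice of different treatment. *Epcam* was at 678, 646, 781 and 627 TPM in the water-treated and 779.5, 816 and 820.3 TPM in the DSS-treated mice, a log2 difference (DSS minus water, on the log2(TPM + 1) scale throughout) of 0.24 ± 0.13 (SE, adjusted p = 0.256). *Vil1*, the villin gene of intestinal epithelial cells, was at 152, 192, 192 and 148 TPM after water and 146, 135 and 181 TPM after DSS, a difference of -0.15 ± 0.16 (SE, adjusted p = 0.587). Both epithelial genes were thus high in all 7 libraries and neither passed the test. Over 35 genes of epithelial cells in general, 1 was called higher (*Klf5*, a transcription factor of crypt cells, by 0.65 with an adjusted p of 0.0435) and 0 lower, with a median log2 difference of -0.03. These shares, 2.86% and 0%, stood against 1.73% higher and 7.55% lower of all genes tested. The label of the cells as colonic epithelium was borne out by these levels, but the libraries also held leukocyte and stromal RNA, and more of it after water, as given further on.

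Among the 11241 genes, limma called 195 higher after DSS (1.73% of those tested) and 849 lower (7.55%) at an adjusted p under 0.05, against a median log2 difference over all genes of 0.01. A change of at least 2-fold was called for 97 genes upward (0.863%) and 728 downward (6.48%). All 3 DSS-treated mice lay above all 4 water-treated mice for 1189 genes (10.6%) and below them for 1594 genes (14.2%). A second fit used the rank of each gene within its mouse, turned into a normal score. It needs no scaling between tables beyond the choice of the genes tested. In it, 472 genes (4.2%) were called higher and 663 (5.9%) lower. The rank fit called all 195 of the higher genes and 659 of the 849 lower genes in the same direction. The share of calls that were higher depended on the scaling: it was 18.7% here, 41.6% on ranks, 41.7% after quantile normalization, 10.1% with factors taken from the pan-epithelial genes, and 73.5% (1988 higher, 717 lower) on TPM as deposited, where the median of all genes stood at 0.32. The counts also turned on single mice, with 1059 higher and 1540 lower without DSS replicate 3, the mouse from cage c, and 32 higher and 375 lower without DSS replicate 2.

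Many of the lower genes were markers of other cell types, and the lists of these were set apart from the other genes. Of 424 tested genes on the leukocyte, plasma cell, antigen presentation and stromal lists, 195 were called lower (46.0%, against 7.55% of all genes) and 4 higher (0.943%, against 1.73%), with a median of -2.57. Outside these lists, 191 of 10817 genes (1.77%) were called higher (median log2 difference of the called genes 0.99) and 654 (6.05%) lower (median -1.60). Among 1077 of them on a list of epithelial programs or general cell functions, 45 (4.18%) were called higher and 78 (7.24%) lower. Markers of other cell types that are on no list stayed among the 654.

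**Figure D1:**
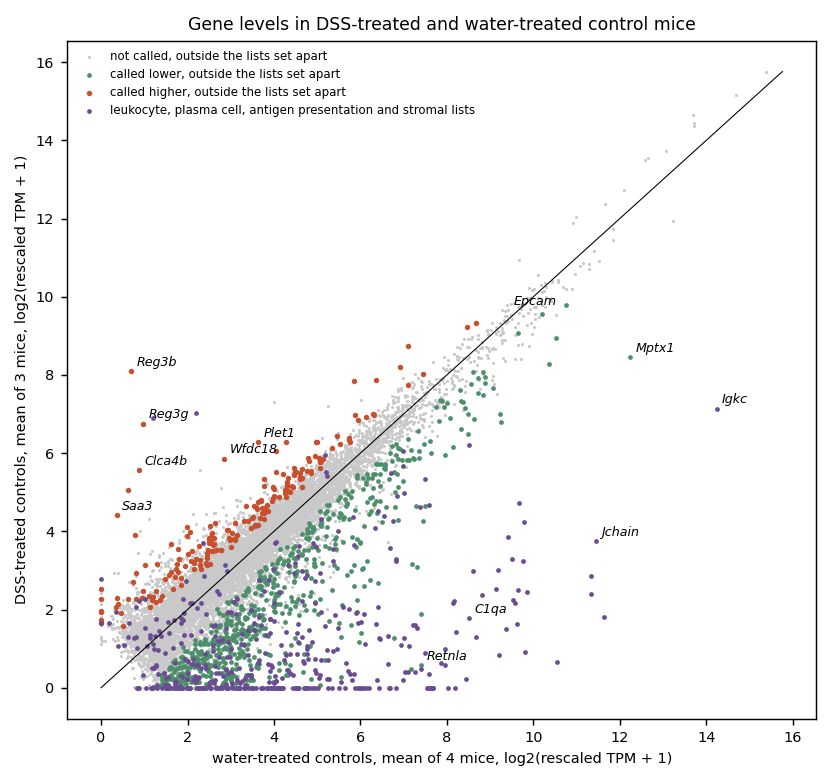
Mean log2(rescaled TPM + 1) of each of the 11241 genes in the 4 water-treated controls (horizontal axis) and the 3 DSS-treated controls (vertical axis), with the line of equal level. Genes of the leukocyte, plasma cell, antigen presentation and stromal lists (purple) lie mostly far below the line, the 191 called higher outside them (orange) lie above it, with *Reg3b*, *Reg3g*, *Clca4b* and *Saa3* rising from near 0, and *Epcam* lies on it.

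The largest rises were those of *Reg3b* and *Reg3g*, which code for secreted C-type lectins that bind bacteria. The genes stand near each other on chromosome 6 (*Reg3b* at chr6:78370657-78373466 and *Reg3g* at chr6:78466269-78468872, GRCm38). *Reg3b* was at 0.648, 0, 0 and 3.22 TPM in the water-treated mice and 221, 985 and 93.6 TPM in the DSS-treated mice, a log2 difference of 7.40 ± 0.83 (SE, adjusted p = 0.00195). *Reg3g* was at 0.662, 0, 1.49 and 2.6 TPM after water and 84.8, 309 and 45.8 TPM after DSS, a difference of 5.77 ± 0.68 (SE, adjusted p = 0.00251). In both genes the groups were far apart, and DSS replicate 2 was highest and replicate 3 lowest. Each call was also made with any 1 mouse left out. Since the 2 genes are paralogs, reads they share were divided between them by kallisto, and the split between the 2 is less certain than their joint rise.

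Upstream sequence of the pair is shown because the 2 genes rose together and their promoters are alike. Over the 250 bases before the RefSeq start of each (GRCm38.p6), 173 of 247 aligned bases were identical (70.0%). The stretches printed run from 178 bases before the start to the end of the TATAAAA motif. Capitals mark the motifs TATAAAA and TTCNNNGAA, which were searched over the 250 bases on both strands and do not overlap each other here.
*Reg3b*, chr6:78370707-78370862, plus strand: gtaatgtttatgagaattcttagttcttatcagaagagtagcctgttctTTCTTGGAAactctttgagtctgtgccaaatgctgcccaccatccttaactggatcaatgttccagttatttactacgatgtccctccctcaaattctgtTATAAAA
*Reg3g*, chr6:78468895-78469052, minus strand: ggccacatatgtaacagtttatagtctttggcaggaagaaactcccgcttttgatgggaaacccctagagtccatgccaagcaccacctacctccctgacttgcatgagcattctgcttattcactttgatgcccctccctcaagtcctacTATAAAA
In GENCODE M21, which places the start of the main *Reg3b* transcript a little further up than RefSeq does, the *Reg3b* stretch lies in the first intron of a longer transcript and its last bases in the first exon of the main one. TATAAAA was found once in each, beginning 29 bases before the start of *Reg3b* and 27 bases before that of *Reg3g*, and is present in 4.98% of 32817 RefSeq windows of this length. TTCNNNGAA, the general form of a STAT site, was found once, in *Reg3b*, beginning 129 bases before the start, and is present in 7.01% of the windows. The motif matches are descriptions of the letters and were not tested as binding sites.

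Other secreted and oxidant defence genes rose as well. Of the 31 tested genes on this list, 9 were called higher and 2 lower, against 1.73% and 7.55% of all genes, and the list's median log2 difference was 0.21 beside 0.01 over all genes. With female mice alone 4 were called higher and 1 lower, and the median was -0.28. *Saa3*, an acute-phase serum amyloid gene, was at 1.77, 0, 0 and 0 TPM after water and 117, 8.99 and 7.19 TPM after DSS (log2 difference 4.04 ± 0.93, adjusted p = 0.0365). DSS replicate 1 stood well above the other two, and the call was kept in 2 of 7 fits that each left out 1 mouse. *Wfdc18*, a small secreted protein with a whey acidic protein domain, was at 5.09, 8.78, 5.31 and 6.15 TPM and 59.4, 64.2 and 48 TPM (log2 difference 3.00 ± 0.21, adjusted p = 0.000252), with little spread within either group. *Nox1*, the NADPH oxidase of the colonic epithelium, was at 19.7, 16.5, 10.8 and 16.3 TPM and 48.4, 108 and 52.5 TPM (log2 difference 2.00 ± 0.32, adjusted p = 0.00893). Its subunit gene *Noxa1* rose by 1.00, and *Duox2*, a dual oxidase that makes hydrogen peroxide, rose from 24.4, 25.1, 30.5 and 26.1 TPM to 46.3, 67.2 and 63 TPM (log2 difference 1.11 ± 0.17, adjusted p = 0.00743). The other 2 called higher were *Pla2g5*, a secreted phospholipase (1.11), and *Defb37*, a defensin (1.71). The pair called lower were *Retnla*, which is known from macrophages, and *Mptx1*, a mucosal pentraxin. *Lcn2*, the iron-scavenging lipocalin of inflamed mucosa, was higher in all 3 DSS-treated mice (37.3, 2.63 and 2.25 TPM against 0.437, 1.05, 0 and 1.24e-05 TPM) without passing the test (log2 difference 2.55 ± 0.85 (SE, adjusted p = 0.106)). *Dmbt1*, a secreted scavenger receptor, was at 16.2, 2.17, 39.4 and 29.6 TPM and 271, 183 and 77.1 TPM and did not pass it either (log2 difference 3.29 ± 0.87, adjusted p = 0.0588).

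Calprotectin genes rose with the defence genes. *S100a8* was at 0.44, 0, 1.49 and 6.9 TPM after water and 784, 127 and 15.5 TPM after DSS, a log2 difference of 5.68 ± 1.27 (SE, adjusted p = 0.0329). *S100a9*, whose protein pairs with that of *S100a8*, was at 1.21, 2.4, 6.83 and 6.33 TPM and 811, 128 and 20.3 TPM, a difference of 4.84 ± 1.12 (SE, adjusted p = 0.0381). DSS replicate 1 was far above replicate 3 in both, and the calls were kept in 2 and 1 of 7 leave-one-out fits. Both genes are best known from neutrophils. They were the only called members of the 14 tested genes of the neutrophil list, and receptors that mark the cell, *Csf3r* (2.67, 4.19, 2.12 and 2.27 TPM and 9.26, 1.44 and 0.493 TPM) and *Cxcr2* (0.17, 1.17, 0.608 and 0.36 TPM and 3.61, 1.38 and 0.348 TPM), were low in both groups. The 2 calls were 14.3% of the list, against 1.73% of all genes. Over the 14 genes the median log2 difference was 0.97, and 10 of them lay above 0. The list's mean log2(TPM + 1) was 4.82, 2.25 and 1.42 after DSS and between 1.66 and 2.15 after water. In DSS replicate 1 the summed level of the list and those receptors were at their highest, and the part of neutrophil RNA in the rise was not tested.

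The rest of the 15 largest rises outside the lists set apart came from no single list. *Clca4b*, of the calcium-activated chloride channel regulator family, was at 1.1, 1.25, 0.526 and 0.605 TPM and 61.7, 95.7 and 16.2 TPM (log2 difference 4.67 ± 0.54, adjusted p = 0.00243). *Clca3b*, of the same family on chromosome 3, was at 146, 136, 92.2 and 187 TPM and 346, 582 and 387 TPM (log2 difference 1.64 ± 0.27, adjusted p = 0.011). *Plet1*, a GPI-anchored surface protein of progenitor epithelium, was at 22, 9.58, 5.45 and 13.9 TPM and 68.6, 87.7 and 74.9 TPM (log2 difference 2.65 ± 0.39, adjusted p = 0.00712). By the rule that chose the 15, the groups overlap in none of them. *Itga2*, the collagen-binding integrin subunit, was at 4.15, 4.89, 5.07 and 4.88 TPM and 18.5, 23.2 and 10.7 TPM (log2 difference 1.62 ± 0.25, adjusted p = 0.00872). *Cd177*, a surface protein best known from neutrophils, was at 84.2, 49.7, 36.9 and 69.1 TPM and 124, 241 and 398 TPM (log2 difference 1.98 ± 0.42, adjusted p = 0.029). Among the DSS-treated mice it was highest in replicate 3, where the neutrophil list was lowest (mean log2(TPM + 1) of 1.42). It was lowest in replicate 1, where that list was highest (4.82). The source of its rise was not tested. *Ddah1*, which breaks down methylated arginines, was at 6.66, 4.08, 5.22 and 5.36 TPM and 20.7, 20.3 and 13.1 TPM (log2 difference 1.58 ± 0.22, adjusted p = 0.00588). *Fam57a* rose by 1.55 (adjusted p = 0.0169). Of the 15, 11 were called with each mouse left out in turn, and the calls lost at least once were those of *Saa3*, *Cd177*, *Fam57a* and *Tph1*, with *Cd177* kept in 3, *Fam57a* in 5 and *Tph1* in 6 of 7 fits.

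**Figure D2:**
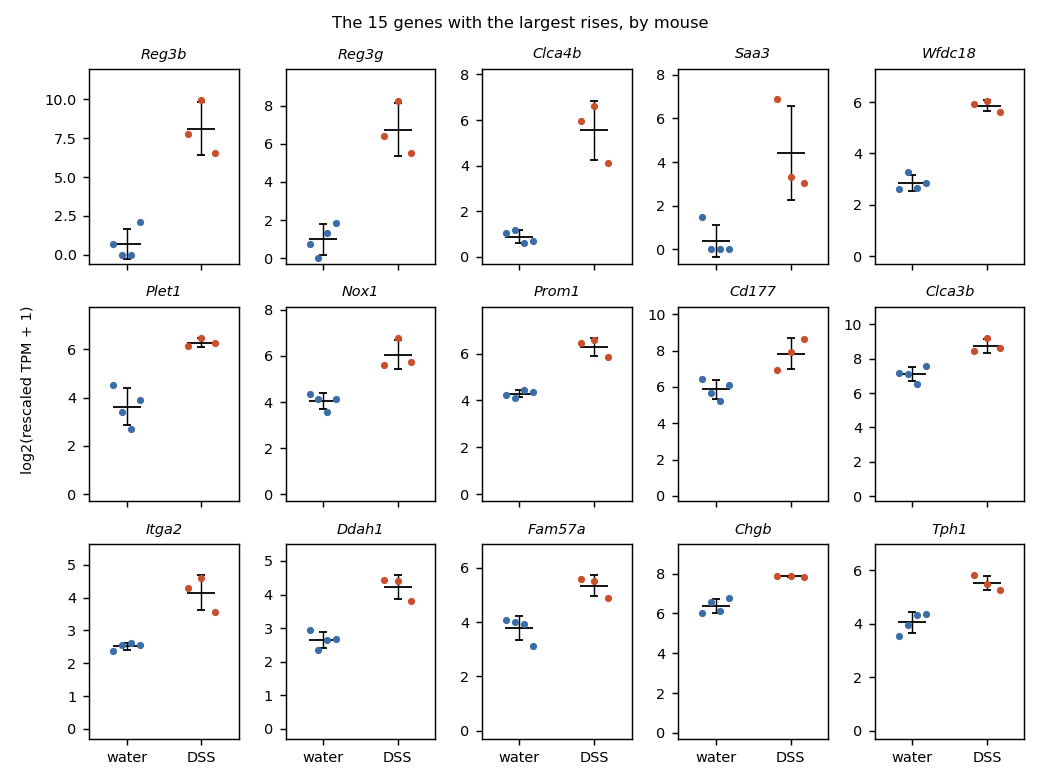
The 15 largest called rises outside the lists set apart, as log2(rescaled TPM + 1) in each mouse (points) with the group mean and SD (bars) for 4 water-treated and 3 DSS-treated controls. In each panel the 3 DSS-treated mice sit above all 4 water-treated mice, and *Reg3b*, *Reg3g*, *Clca4b* and *Saa3* start near 0.

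Among crypt and proliferation genes, *Prom1*, which codes for the surface protein CD133 of stem and progenitor cells, rose from 17.9, 16.3, 20.7 and 19.6 TPM to 85.4, 93.5 and 56.5 TPM (log2 difference 1.99 ± 0.20, adjusted p = 0.00107). It was the 1 gene called among 20 crypt stem and Wnt target genes (5%, against 1.73% of all genes), whose median log2 difference was 0.41. *Lgr5*, the receptor that marks crypt base stem cells, was at 2.15, 4.07, 2.48 and 2.7 TPM and 3.73, 6.24 and 3.35 TPM (log2 difference 0.49 ± 0.27, adjusted p = 0.278), and *Ascl2*, a transcription factor of the same cells, was at 5.02, 9.08, 4.87 and 6.34 TPM and 4.13, 2.41 and 3.03 TPM (log2 difference -0.79 ± 0.26, adjusted p = 0.102). The list's members thus did not all lie on the same side. *Mki67*, the proliferation antigen, was at 17.9, 24.1, 17.9 and 29.4 TPM and 42.6, 60.9 and 34.7 TPM (log2 difference 1.01 ± 0.25, adjusted p = 0.0481), with the groups apart. It and *Kif20b*, a mitotic kinesin listed at 0 in all 4 water-treated mice and at 2.58, 4.41 and 2 TPM after DSS, were the 2 called of 53 G2/M phase genes (3.77%, against 1.73% of all genes), with 0 lower and a median of 0.35. *Kif20b* passed the minimum level through the DSS-treated mice alone and could only lie higher. Its level is that of principal isoforms alone. Of 43 S phase genes, limma called 0 in either direction, with a median of 0.33. The median stayed above 0 for the stem, G2/M and S phase lists under each scaling tried.

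Of 50 genes on the study's reference list for progenitor 2 cells of the colonic epithelium, 7 were called higher (14%, against 1.73% of all genes) and 1 lower (2%, against 7.55%). The counts were 1 and 1 with factors from pan-epithelial genes, 0 and 0 with female mice alone, and 15 and 1 on ranks. *Sox4*, a transcription factor of early progenitors, was at 8.65, 10.8, 8 and 9.91 TPM and 25.9, 32 and 16.3 TPM (log2 difference 1.27 ± 0.24, adjusted p = 0.0172). *Slc12a2*, the sodium, potassium and chloride cotransporter of secreting crypts, was at 55.3, 59.4, 50.7 and 68.1 TPM and 128, 166 and 93.7 TPM (log2 difference 1.10 ± 0.21, adjusted p = 0.018). *Hook1* rose by 1.25, *Atp8b1*, a phospholipid flippase, by 0.78 and *Gmds*, an enzyme of fucose synthesis, by 0.66. The list's median was -0.05, so that it did not shift as a whole. On rescaled levels the study's other progenitor lists did not share the excess of rises. Progenitor 1 gave 1 higher (2.08%) and 0 lower of 48, with a median of 0.33. Progenitor 3 gave 1 higher (2%) and 6 lower (12%) of 50, with a median of -0.36. On ranks progenitor 1 gave 4 higher and 0 lower, and progenitor 3 gave 4 higher and 3 lower, against 4.2% of all genes higher and 5.9% lower.

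Enteroendocrine genes gave 4 called higher (10.8%, against 1.73% of all genes; 2 with female mice alone) and 0 lower of 37, with a median of 0.32. *Chgb*, a granule protein of hormone-secreting cells, was at 64, 93.3, 68 and 108 TPM and 235, 236 and 230.3 TPM (log2 difference 1.51 ± 0.20, adjusted p = 0.00422), and the 3 DSS-treated mice were close to each other. *Tph1*, the enzyme that commits enterochromaffin cells to serotonin and a member of no list, was at 10.7, 14.6, 19.1 and 19.8 TPM and 55.3, 44.3 and 37.7 TPM (log2 difference 1.48 ± 0.24, adjusted p = 0.0103). The other 3 of the list were *Neurod1* (1.24) and *Insm1* (1.13), transcription factors of endocrine fate, and *Snap25* (1.26), a protein of vesicle fusion that is also on the neuron list. *Chga* was at 58.4, 70.9, 59 and 75.7 TPM and 104, 79.5 and 149 TPM and was not called (log2 difference 0.70 ± 0.22, adjusted p = 0.0951).

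Some genes of cholesterol synthesis rose. Of 30 tested, 7 were called higher (23.3%, against 1.73% of all genes) and 0 lower, 26 had a log2 difference above 0, all 3 DSS-treated mice lay above all water-treated mice for 18 of them (10.6% of all genes), and the median log2 difference was 0.54. *Idi1*, isopentenyl diphosphate isomerase, was at 32.7, 29.8, 31.7 and 29.1 TPM and 96, 95.1 and 48.9 TPM (log2 difference 1.28 ± 0.24, adjusted p = 0.0181). *Cyp51*, lanosterol demethylase, was at 32.1, 31.3, 32.6 and 31.1 TPM and 61.8, 67.7 and 45.2 TPM (log2 difference 0.83 ± 0.16, adjusted p = 0.0185), and *Sqle*, squalene epoxidase, was at 36.2, 34, 37.3 and 30.1 TPM and 57.4, 66.1 and 47.7 TPM (log2 difference 0.71 ± 0.15, adjusted p = 0.0294). *Acat2* (0.88), *Nsdhl* (0.81), *Fdps* (0.73) and *Fdft1* (0.70) were the other 4. With female mice alone 0 of the 30 were called by limma, with sex as a covariate or with factors from pan-epithelial genes 2, and on ranks 13. The single calls were kept in between 2 and 6 of 7 leave-one-out fits, while the list's mean level was between 4.35 and 4.50 after water and between 4.84 and 4.96 after DSS on the log2(TPM + 1) scale, with no overlap.

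Repair genes and targets of YAP, the growth coactivator of wounded epithelium, moved in both directions. Of 36 tested, 2 were called higher (5.56%, against 1.73% of all genes) and 5 lower (13.9%, against 7.55%), with 0 and 3 in female mice alone, and the median was -0.08 (0.27 on TPM as deposited). *Itga2* and *S100a11*, a calcium-binding protein (log2 difference 0.78 ± 0.17, adjusted p = 0.032), were the 2 higher. *Ccn1* and *Ccn2*, secreted matrix proteins that are classical YAP targets and are also made by fibroblasts, fell by 1.00 and 2.29, *Lats2*, a kinase of the same pathway, fell by 1.13, and *Tgfb1*, the gene of transforming growth factor beta 1, went from 20.7, 21.5, 17.1 and 19.1 TPM to 2.33, 2.04 and 4.14 TPM (log2 difference -2.46 ± 0.22, adjusted p = 0.000664). *Ly6a*, which codes for Sca-1, was at 113, 175, 135 and 163 TPM after water and 331, 275 and 127 TPM after DSS, with replicate 3 inside the range of the water-treated mice, and did not pass the test (log2 difference 0.64 ± 0.33, adjusted p = 0.248). Without DSS replicate 3 the difference was 1.06 and was called (adjusted p = 0.0174 in limma), the 1 call in 7 leave-one-out fits. *Ly6d* was at 58.3, 29.6, 5.49 and 78.2 TPM and 6.31, 3.8 and 1.57 TPM (log2 difference -2.79 ± 0.84, adjusted p = 0.0837), *Clu* at 7.42, 8.39, 9.82 and 4.06 TPM and 24.3, 5.28 and 7.23 TPM (log2 difference 0.43 ± 0.50, adjusted p = 0.6), and *Yap1* at 6.55, 7.1, 1.7 and 0.425 TPM and 17.3, 3.29 and 12.6 TPM (log2 difference 1.38 ± 0.74, adjusted p = 0.267). None of these 4 was called with all 7 mice, and the groups overlapped in each. *Ly6d* is also on the B cell list. Leukocyte markers fell in the same mice as *Ly6d* and *Tgfb1*, and the leukocytes' part in these values was not tested.

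The study's list of fetal intestine genes gave 7 called higher (3.26%, against 1.73% of all genes) and 34 lower (15.8%, against 7.55%) of 215, with a median of -0.21 (0.10 on TPM as deposited). Among the 7 were *Ddah1*, *S100a11*, *Pir* (1.39), *Vsig1* (1.35) and *Serpinb5*, an epithelial serpin (1.10). Among the falls were *Cd68* (-4.33) and *Laptm5* (-4.33), lysosomal proteins best known from macrophages and other leukocytes, and *S100a4* (-3.67). The 34 lower members thus included genes of other cell types, whose own markers fell in the same mice.

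Some genes of mature absorptive cells were lower after DSS. Of 49 on the study's list, 10 were called lower (20.4%, against 7.55% of all genes; 3 with female mice alone) and 0 higher, with a median of -0.73. *Car4*, the surface carbonic anhydrase, was at 206, 254, 367 and 329 TPM after water and 66.9, 43.5 and 118 TPM after DSS (log2 difference -1.99 ± 0.35, adjusted p = 0.0131). *Tgm3*, a transglutaminase, was at 108, 158, 194 and 179 TPM and 26.4, 15.8 and 34.1 TPM (log2 difference -2.63 ± 0.29, adjusted p = 0.00189), and *Slc15a1*, the peptide transporter, was at 11.6, 9.1, 26.7 and 18 TPM and 3.57, 1.6 and 3.95 TPM (log2 difference -2.05 ± 0.39, adjusted p = 0.0191). In all 3 the groups were apart. *Selenop*, a selenium transport protein that macrophages also express, was at 583, 542, 665 and 666 TPM and 169.7, 94.4 and 83.1 TPM (log2 difference -2.46 ± 0.25, adjusted p = 0.00113), and *Eno3*, an enolase, fell by 2.24 and *Ces2c*, a carboxylesterase, by 1.38. *Krt20*, the keratin of surface cells, was at 177, 129, 224 and 165 TPM and 230.2, 164 and 118 TPM and did not pass the test (log2 difference -0.05 ± 0.26, adjusted p = 0.92).

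Of 43 transport genes, 3 were called higher (*Clca4b*, *Clca3b* and *Slc12a2*; 6.98%, against 1.73% of all genes) and 4 lower (9.30%, near the 7.55% of all genes). *Trpm6*, the magnesium channel of the distal colon, was at 15.8, 26, 27.9 and 16.7 TPM and 6.78, 4.33 and 5.65 TPM (log2 difference -1.75 ± 0.25, adjusted p = 0.00632). The other 3 were *Car4*, *Clca1* and *Slc9a3r1*, a scaffold of brush border exchangers, which was at 78.8, 71.8, 82.7 and 78.1 TPM and 41.7, 35.3 and 55 TPM (log2 difference -0.83 ± 0.16, adjusted p = 0.0219). *Slc26a3*, the chloride and bicarbonate exchanger, was lower in all 3 DSS-treated mice (98.3, 70.4 and 52.2 TPM against 111, 123, 188 and 127 TPM) without passing the test (log2 difference -0.90 ± 0.26, adjusted p = 0.073), and *Car2*, a cytosolic carbonic anhydrase, was at 427, 432, 475 and 318 TPM and 336, 237 and 256 TPM (log2 difference -0.58 ± 0.19, adjusted p = 0.101).

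Secretory cell genes had a spread after DSS that a single mouse set. *Muc2*, the main mucin of goblet cells, was at 68.5, 94.5, 200.2 and 116 TPM after water and 28.9, 33.1 and 129 TPM after DSS, and *Reg4*, a marker of deep crypt secretory cells, was at 753, 412, 395 and 634 TPM and 212, 134 and 457 TPM. In both, DSS replicate 3 lay inside the range of the water-treated mice and the other two lay below it, and neither gene passed the test (adjusted p = 0.237 and 0.129). *Clca1*, a secreted goblet cell protein, was at 1655, 307, 564 and 450.5 TPM and 98.8, 114 and 186 TPM (log2 difference -2.22 ± 0.54, adjusted p = 0.0451), and *Fcgbp*, a mucus protein, was at 468, 164, 209 and 229 TPM and 49.5, 39 and 119 TPM (log2 difference -1.99 ± 0.46, adjusted p = 0.0385). *Mptx1* was at 9475, 2681, 3329.7 and 6376 TPM and 82.1, 379 and 1364 TPM (log2 difference -3.78 ± 0.90, adjusted p = 0.041). These 3 genes lay below the water-treated range in all 3 DSS-treated mice, with calls kept in 3, 1 and 1 of 7 leave-one-out fits. Of 17 goblet cell genes, 2 were called lower and 0 higher (median -0.82), and of 48 deep crypt secretory genes, 3 were lower and 1 higher (median -0.59). The lower shares, 11.8% and 6.25%, were near the 7.55% of all genes. On ranks 0 genes of either list were called lower, against 5.9% of all genes. The rank fit called 1 goblet cell gene and 4 deep crypt secretory genes higher, against 4.2% of all genes. With female mice alone 0 genes of either list were called in either direction.

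Metabolic lists moved little as wholes. Of 67 xenobiotic metabolism genes, 2 were called higher (2.99%; *Gsta3* 1.00 and *Cyp4f40* 0.82) and 4 lower (5.97%), shares near the 1.73% and 7.55% of all genes. Among the 4 were the cytochrome P450 genes *Cyp2d10* (-1.10) and *Cyp2c68* (-0.90). Of 40 genes of fatty acid oxidation, 3 were called lower (7.5%, against 7.55% of all genes) and 0 higher, namely *Cd36*, a fatty acid receptor also carried by macrophages, *Plin2*, the lipid droplet coat protein (log2 difference -0.97 ± 0.12, adjusted p = 0.00325), and *Ech1* (-0.68). Of 35 unfolded protein response genes, *Herpud1* (-1.07) and *Ppp1r15a* (-0.93) were called lower (5.71%, near the 7.55% of all genes) and 0 higher. Among 78 genes of cytosolic ribosomal proteins and 77 nuclear genes of oxidative phosphorylation, limma called 0 in either direction on rescaled levels, and their medians were -0.08 and -0.03. On ranks 9 of the 78 and 5 of the 77 were called higher and 0 lower, against 4.2% of all genes higher. Of the 35 unfolded protein response genes, 3 were higher and 0 lower on ranks. These calls thus depended on the scaling.

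**Figure D3:**
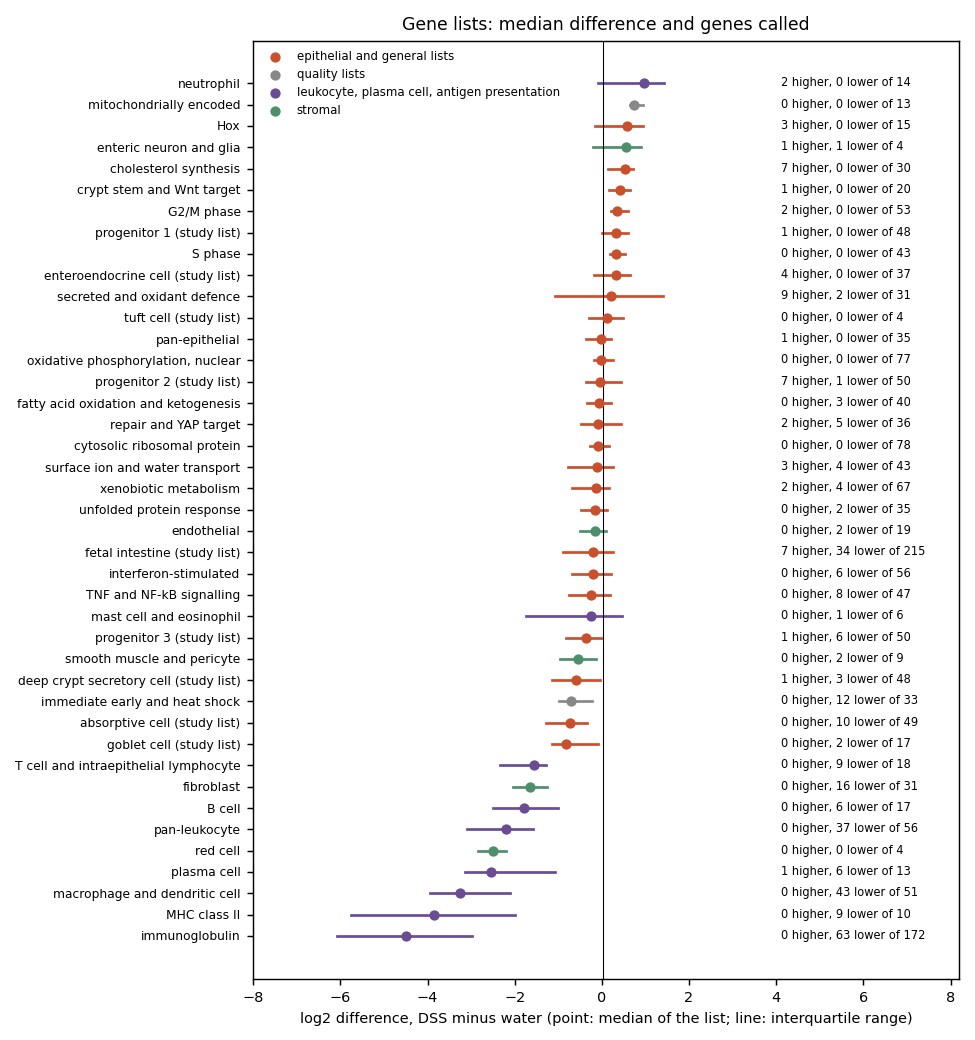
Median log2 difference (DSS minus water, points) and the interquartile range of the genes (lines) for each list with at least 4 tested genes, with the genes called higher and lower beside it. The vertical line is the median of all 11241 genes (0.01), and the lists of leukocytes, plasma cells, antigen presentation, fibroblasts and red cells lie furthest to the left of it. The neutrophil list and the list of mast cells and eosinophils do not.

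Immunoglobulin and plasma cell genes were set apart, since an epithelial cell does not make antibody. In the water-treated mice immunoglobulin genes added up to between 9555 and 228289 rescaled TPM, and in the DSS-treated mice to between 139 and 1794. *Igkc*, the kappa light chain, was at 44108, 16422, 2294 and 83785 TPM after water and 664, 54.3 and 74.3 TPM after DSS (log2 difference -7.10 ± 1.34, adjusted p = 0.0181). *Jchain*, which joins antibodies for secretion, was at 6331, 2080.2, 509 and 8932 TPM and 57.6, 4.57 and 6.48 TPM (log2 difference -7.69 ± 1.16, adjusted p = 0.00739), and *Mzb1*, a chaperone of antibody-secreting cells, was at 144, 57.5, 9.69 and 255 TPM and 1.22, 1.6 and 0.806 TPM (log2 difference -4.99 ± 0.97, adjusted p = 0.0206). Water replicate 3 was lowest of its group in all 3 and still above each DSS-treated mouse. Of 262 listed immunoglobulin genes 172 were tested, and 63 of these were called lower (36.6%, against 7.55% of all genes) and 0 higher (median -4.49). Among the 172, 90 were at 0 in all 3 DSS-treated mice. These passed the minimum level through the water-treated mice alone and could only lie lower, which also weighs on the median. Of 13 plasma cell genes, 6 were called lower (46.2%) and 1 higher (7.69%, against 1.73% of all genes), with a median of -2.54. Among the 13, 2 were at 0 in all 3 DSS-treated mice and likewise could only lie lower. The 1 higher was *Cd38*, a surface enzyme that cells other than plasma cells also carry (log2 difference 0.75 ± 0.18, adjusted p = 0.0421). Single variable and constant genes of an antibody locus share sequence, and the division of reads among them is uncertain.

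Macrophage and dendritic cell genes fell together. Of 51 tested, 43 were called lower (84.3%, against 7.55% of all genes) and 0 higher, with a median of -3.26. Among the 51, 1 was at 0 in all 3 DSS-treated mice and passed the minimum level through the water-treated mice alone. The summed level of the list was 3698 to 4275 TPM after water and 166 to 322 TPM after DSS. *Csf1r*, the receptor that macrophages depend on, was at 127, 129, 129 and 121 TPM and 2.58, 0.462 and 1.65 TPM (log2 difference -5.73 ± 0.28, adjusted p = 9.57e-05). *C1qa*, *C1qb* and *C1qc*, the complement subunits made by tissue macrophages, differed by -6.74, -5.96 and -6.77, and *C1qa* was at 361, 355, 366 and 372 TPM and 1.28, 0.672 and 9.47 TPM. *Lyz2*, the lysozyme of myeloid cells, was at 973, 868, 854 and 847 TPM and 26.5, 9.02 and 23.9 TPM (log2 difference -5.54 ± 0.33, adjusted p = 0.000162). The 4 water-treated mice were close to each other in each of these. Of 10 genes of MHC class II presentation, 9 were called lower (90%, against 7.55% of all genes), as for *Cd74*, the invariant chain, at 593, 436, 279 and 558 TPM and 2.64, 2.21 and 10.8 TPM (log2 difference -6.44 ± 0.48, adjusted p = 0.000328), and *H2-Aa* (-6.22) and *H2-Ab1* (-6.18).

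The 15 largest falls outside the lists set apart had log2 differences from -6.82 to -4.19. *Retnla* was at 411, 112, 281 and 62.1 TPM and 0, 2.36 and 0 TPM (log2 difference -6.82 ± 0.72, adjusted p = 0.00152), *Pf4* at 165, 140.1, 184 and 95.6 TPM and 0.943, 0 and 0.416 TPM (log2 difference -6.67 ± 0.30, adjusted p = 7.01e-05) and *Ccl8*, a chemokine, at 236, 92.7, 138 and 269.9 TPM and 2.76, 3.02 and 2.43 TPM (log2 difference -5.51 ± 0.36, adjusted p = 0.000213). The chemokine *Ccl12* was at 29.3, 25.6, 7.63 and 45.4 TPM after water and was listed at 0 in all 3 DSS-treated mice. The others were *Ly6c2*, *Folr2*, *Mgl2*, *F13a1*, *Fcrls*, *Pltp*, *Stab1*, *Ifi207*, *Ccl7*, *Ms4a4a* and *Cd36*, with log2 differences from -5.51 (*Ly6c2*) to -4.19 (*Cd36*). *Folr2*, *Mgl2*, *F13a1* and *Stab1*, for example, are known from tissue macrophages. They fell in the same mice as the macrophage list, and their source was not tested.

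Part of the lymphocyte genes fell too, from lower levels. *Ptprc*, which codes for the pan-leukocyte surface protein CD45, was at 22.1, 19.5, 17.4 and 31.9 TPM after water and 1.36e-08, 1.31 and 1.63 TPM after DSS (log2 difference -3.66 ± 0.37, adjusted p = 0.00123), and 37 of 56 pan-leukocyte genes were called lower (66.1%, against 7.55% of all genes) and 0 higher (median -2.20). Of 62 listed T cell and intraepithelial lymphocyte genes 18 were above the minimum level, and of these 9 were lower (50%, against 7.55% of all genes) and 0 higher. Of 17 B cell genes, 6 were lower (35.3%) and 0 higher. All 3 DSS-treated mice were at 0 for 2 of the 56, 5 of the 18 and 3 of the 17, which passed the minimum level through the water-treated mice alone. *Cd4* was at 8.52, 7.76, 3.23 and 11.6 TPM and 0.148, 0.129 and 0 TPM (log2 difference -2.90 ± 0.37, adjusted p = 0.00376), and *Cd79a*, part of the B cell receptor, at 62.9, 12.5, 7.82 and 55.9 TPM and 0.513, 0.599 and 0.678 TPM (log2 difference -4.01 ± 0.71, adjusted p = 0.014). *Cd2*, an adhesion molecule of T cells, was at 15.3, 4.56, 4.48 and 24.5 TPM after water and listed at 0 in all DSS-treated mice, as was *Ear2* of eosinophils (26.2, 13.7, 7.4 and 18.1 TPM after water). In bulk RNA, fewer cells of a type and less RNA per cell cannot be told apart.

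Fibroblast genes were lower as well, and the other stromal lists gave few calls. Of 31 fibroblast genes, 16 were called lower (51.6%, against 7.55% of all genes, and 3 genes with female mice alone) and 0 higher (median -1.65), as for *Dcn*, the matrix proteoglycan decorin, at 283, 486, 431 and 304 TPM and 156, 40.9 and 61 TPM (log2 difference -2.31 ± 0.43, adjusted p = 0.0181), and *Dpt*, dermatopontin, at 79.6, 132, 128 and 99.4 TPM and 36.8, 8.77 and 18.6 TPM (log2 difference -2.49 ± 0.43, adjusted p = 0.0129). *Col1a1*, a chain of type I collagen, was at 22.6, 34, 39.3 and 28.1 TPM and 19.1, 5.78 and 12.1 TPM and was not called (log2 difference -1.37 ± 0.37, adjusted p = 0.0596). DSS replicate 1 was the highest of its group in these 3. Of 19 endothelial genes 2 were lower (10.5%, near the 7.55% of all genes), namely *Lyve1* (-2.14) and *Cd34* (-1.89). Of 9 smooth muscle genes 2 were lower (22.2%), namely *Myl9* (-1.65) and *Acta2* (-1.17). Of 4 neuron and glia genes *Stmn2* was lower (-1.82) and *Snap25* higher (25% each way, against 7.55% and 1.73% of all genes). The hemoglobin gene *Hbb-bs*, which reads out blood in the sample, was at 85, 140.0, 300.2 and 204 TPM and 31.8, 5.21 and 73.1 TPM (log2 difference -2.74 ± 0.81, adjusted p = 0.0801).

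**Figure D4:**
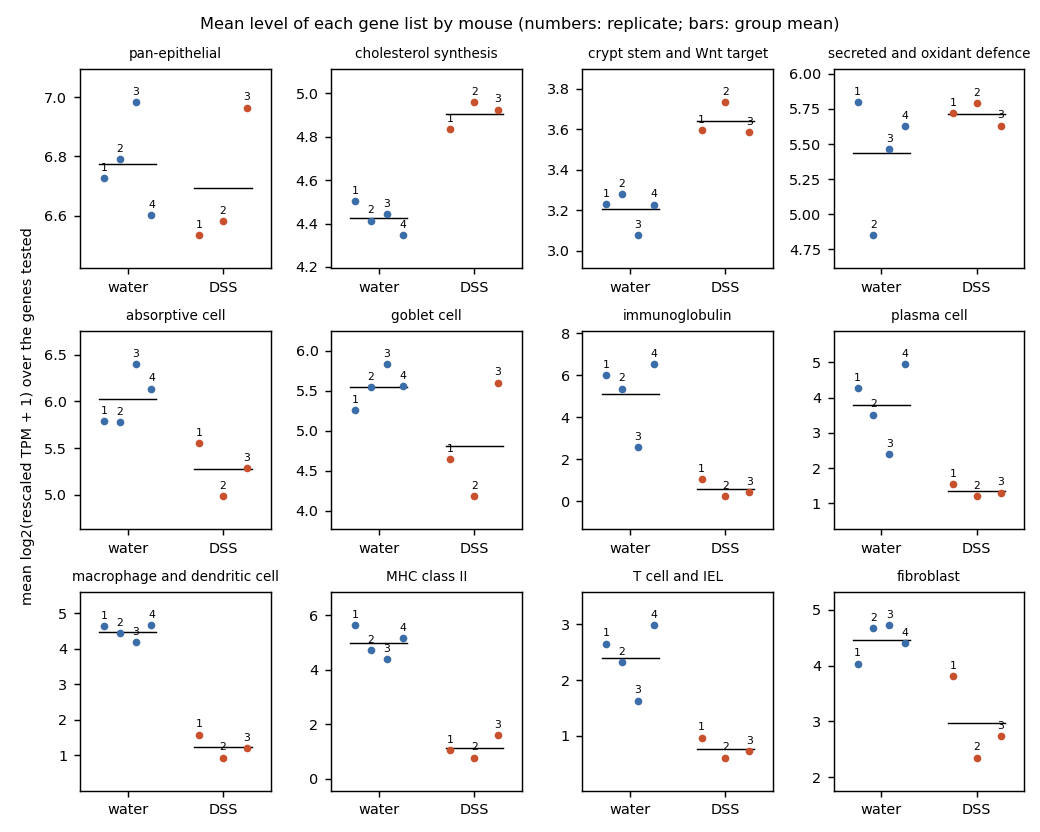
Mean log2(rescaled TPM + 1) over the tested genes of 12 lists in each mouse (points with replicate number, bars at the group mean; each panel has its own axis, which does not start at 0). The macrophage, MHC class II, immunoglobulin, plasma cell, T cell and fibroblast lists lie lower in all 3 DSS-treated mice, the cholesterol and stem lists higher, and DSS replicate 3 reaches the water-treated range in the goblet and pan-epithelial lists.

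TNF receptors and the signalling below them were of interest because the allele concerned *Tnfrsf1b*. *Tnfrsf1b* was at 14.5, 16.8, 12.2 and 17 TPM after water and 19.2, 12.3 and 10.8 TPM after DSS, a log2 difference of -0.12 ± 0.23 (SE, adjusted p = 0.751), and the groups overlapped (exact two-sided permutation p = 0.686, with 0.0286 the smallest that 3 against 4 mice allow). *Tnfrsf1a*, the gene of TNF receptor 1, was at 36.6, 37.4, 38.6 and 31 TPM and 19.9, 19.6 and 30.1 TPM and missed the threshold (log2 difference -0.63 ± 0.18, adjusted p = 0.0762), and *Tnf* was at 13.3, 22.7, 13.4 and 16.8 TPM and 25.1, 37.8 and 16.5 TPM (log2 difference 0.60 ± 0.30, adjusted p = 0.238). Of 47 TNF and NF-kB signalling genes, 8 were called lower (17.0%, against 7.55% of all genes; 3 with female mice alone and 3 with factors from pan-epithelial genes) and 0 higher, with a median of -0.25 (0.07 on TPM as deposited). *Icam1*, an adhesion molecule that NF-kB induces, was at 33.7, 49.4, 35.5 and 34.3 TPM and 15.3, 10 and 8.26 TPM (log2 difference -1.71 ± 0.23, adjusted p = 0.00483), and *Nfkbie*, an inhibitor of NF-kB, at 12, 14.7, 8.85 and 15.2 TPM and 3.39, 2.2 and 1.62 TPM (log2 difference -2.01 ± 0.26, adjusted p = 0.00378). *Traf1* (-1.62), *Map3k8* (-1.49) and *Nfkbia* (-0.76) were also lower, while *Tnfaip3*, another target and brake of the pathway, was at 71.1, 66.5, 52.9 and 77.9 TPM and 65.5, 66.9 and 51.8 TPM (log2 difference -0.12 ± 0.17, adjusted p = 0.673). These genes and *Tnfrsf1b* are also expressed by leukocytes, whose markers fell in the same mice. The leukocytes' part in the fall, and in the level of *Tnfrsf1b* in either group, was not tested.

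Interferon-stimulated genes gave 6 called lower (10.7%, against 7.55% of all genes) and 0 higher of 56, with a median of -0.21 (0.11 on TPM as deposited). The 6 were led by *Ifi27l2a* (-2.12), *Bst2*, which tethers viruses at the cell surface (-1.87), *Psmb8*, an immunoproteasome subunit (-1.75), and *Tap1*, a peptide transporter for antigen presentation (-1.58). *Ifit1*, which binds viral RNA, was at 0.667, 3.76, 1.05 and 2.05 TPM and 6.56, 2.92 and 1.14 TPM and was not called (log2 difference 0.59 ± 0.51, adjusted p = 0.483). Pan-leukocyte and MHC class II genes fell in the same mice, and their part in the 6 calls was not tested.

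Immediate early and heat shock genes, which respond to tissue digestion and sorting as well as to signals in the animal, were in part lower after DSS: 12 of 33 were called lower (36.4%, against 7.55% of all genes) and 0 higher, with a median of -0.70. *Dusp1*, a phosphatase of MAP kinases, was at 370.4, 347, 337 and 314 TPM and 142, 119.6 and 171 TPM (log2 difference -1.25 ± 0.15, adjusted p = 0.00268), *Fos* at 1187, 1017, 1258 and 1262 TPM and 686, 759 and 809 TPM (log2 difference -0.65 ± 0.14, adjusted p = 0.0272) and *Hspa1a*, a heat shock protein, at 411, 425, 256 and 377 TPM and 216, 132 and 74.1 TPM (log2 difference -1.48 ± 0.35, adjusted p = 0.0419). On ranks 4 of the 33 were called lower, and with female mice alone 1. The 13 mitochondrially encoded genes had a median of 0.73 and log2 differences from 0.37 to 1.27, all above 0, with 0 called in either direction by limma. Their share of the summed TPM was 16.9% to 35.1% after water and 36.4% to 45.9% after DSS, with no overlap. That sum also holds the immunoglobulin genes, at 1.62% to 30.9% of it after water and at most 0.319% after DSS. The summed rescaled level of the 13 did overlap, at 111961 to 207405 TPM after water and 194222 to 258246 TPM after DSS. *mt-Co1*, the lowest of the 13 by difference, was at 34679, 38642, 58843 and 43371 TPM and 52253, 62942 and 52038 TPM (log2 difference 0.37 ± 0.26, adjusted p = 0.391). The part of sample handling in these levels was not tested.

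Homeobox genes of the Hox clusters, which mark position along the gut, gave 3 called higher (20.0%, against 1.73% of all genes; 1 with female mice alone) and 0 lower of 15 (median 0.57). *Hoxa9* was at 4.3, 4.23, 6.94 and 4.56 TPM and 15.9, 19.4 and 9.84 TPM (log2 difference 1.39 ± 0.27, adjusted p = 0.019), *Hoxa5* at 4.36, 4.25, 6.88 and 3.54 TPM and 12.8, 11.4 and 12.1 TPM (log2 difference 1.22 ± 0.22, adjusted p = 0.014) and *Hoxa3* at 5.15, 4.3, 4.38 and 5.18 TPM and 7.56, 7.75 and 8.42 TPM (log2 difference 0.63 ± 0.16, adjusted p = 0.0478). *Hoxb13*, known from the most distal colon, was at 109, 120.3, 125 and 94.3 TPM and 34.9, 31 and 118 TPM, with DSS replicates 1 and 2 below the water-treated range and replicate 3 inside it (log2 difference -1.13 ± 0.43, adjusted p = 0.146).

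**Figure D5:**
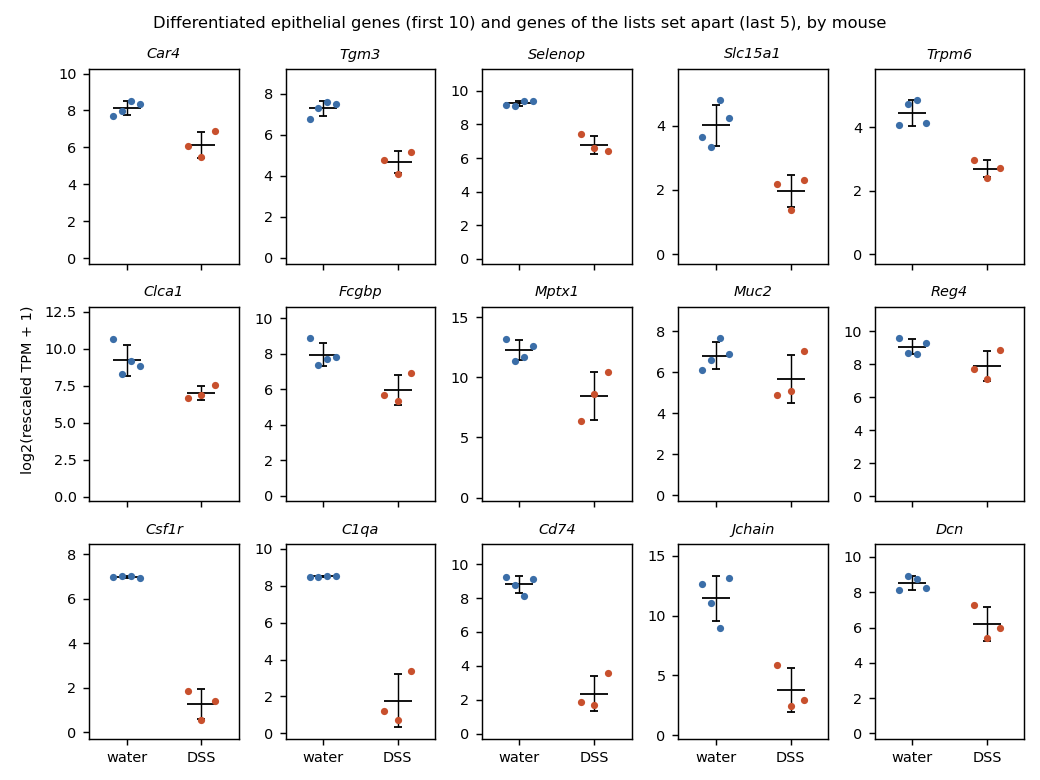
Log2(rescaled TPM + 1) in each mouse (points) with the group mean and SD (bars) for 10 genes of differentiated epithelium and 5 genes of the lists set apart, in 4 water-treated and 3 DSS-treated controls. The groups are apart for all but *Muc2* and *Reg4*, in which DSS replicate 3 overlaps the water-treated mice.

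Outside the immunoglobulin and mitochondrial genes, the highest mean levels after water were those of *Sprr2a2* (8355, 7551, 13238 and 10135 TPM, a small proline-rich protein), *Mptx1*, *Jchain*, *Lypd8* (3119, 3025, 5109 and 3888 TPM, which keeps bacteria off the epithelium) and *Eef1a1* (3745, 4002, 3184 and 3827 TPM, a translation factor). After DSS they were *Sprr2a2* (3550.5, 2579 and 6528 TPM), *Eef1a1* (3288, 3493 and 3393 TPM), *Lypd8* (3162, 2547 and 2779.9 TPM), *Rpl41* (1945, 1950.2 and 3142 TPM) and *S100a6* (1731, 1691 and 2479 TPM). *Sprr2a2* was lower in each DSS-treated mouse and missed the threshold (log2 difference -1.29 ± 0.35, adjusted p = 0.0597), and near-identical copies of this gene make its reads hard to divide.

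The same contrast in the mice labelled knockout (4 after DSS, 5 after water), whose *Tnfr2* is removed from villin-expressing cells and which shared no animal with the controls but did share their tables and cages, was set beside these results. Of the 195 genes called higher in the controls, 194 also had a log2 difference above 0 in those mice (49.9% of all genes tested did), with a median of 0.91. Of the 849 called lower, 840 were below 0 there (50.1% of all genes), with a median of -1.64. In a test of whether the response to DSS differed between genotypes, limma called 2 of 11207 genes (0.0178%), *Dus2* and *Trp53*, while 473 had an unadjusted p under 0.05.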

How the data were processed

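RNA of sorted EpCAM+ cells was compared between 3 DSS-treated and 4 water-treated control mice. Sample labels gave the groups, the cage and the sex. The authors sequenced stranded polyA libraries as single reads of 75 bases and quantified them with kallisto (build mm10 per the submitters' processing notes). They deposited 1 table per treatment with TPM per transcript and mouse, normalised within each table, together with sleuth's p-values, q-values, mean abundance and log2 ratios for genotype, which were not used here. The tables listed principal isoforms alone, 28988 transcripts after 385 repeated lines were dropped, and isoforms outside them were not analysed here. From the deposited TPM, levels were summed per gene symbol, and all 16 mice were rescaled by median-of-ratios factors.

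For each gene whose level averaged 1 TPM or more in the 7 mice, log2(TPM + 1) was fitted by treatment in limma (3.58.1, R 4.3.3), allowing the prior variance to follow the level. A call means a Benjamini-Hochberg adjusted p below 0.05. Because the tables had been normalised separately, the same fit on ranks within each mouse, as normal scores over the same genes, was set beside it. No counts were available, so count tests were not run, and depth is unknown. On simulated data with 200 of 11241 genes changed, the test recovered 11.5%, 71.5% and 86% at log2 changes of 1, 2 and 3. It also called 1, 6 and 5 unchanged genes there, and 0 genes where none had been changed. Each gene was drawn independently, so shifts shared by the genes of a mouse or cage were not part of the simulation. The labels give each library a cage and a sex, and p-values measure the spread between these libraries, which may be partly technical.

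The members, gene lists and rules were chosen with earlier results of these data known. Lists were written by hand from textbook markers, or taken from the study's supplementary table of cell type and fetal genes. Genes named were fixed anchors (the epithelial, leukocyte, TNF receptor and repair genes), the 15 largest rises and falls among called genes averaging 10 TPM or more, with groups that did not overlap and the same call on ranks, outside the lists set apart and predicted genes, up to 4 called members per list and direction, the 5 most abundant genes per group, and list members that define a cell type or step. A few genes that these rules name are not reported here. *Reg3b* and *Reg3g* upstream sequence was picked after their values were seen. Alternatives were other pseudocounts, filters, scalings, female mice alone, sex as a covariate, all groups in one fit, a replicate block, and each mouse left out. Positions are from GENCODE M21 on GRCm38, in which 96% of transcript versions were found. Python 3.11.15, numpy 2.4.6, pandas 2.3.3, scipy 1.17.1 and matplotlib 3.10.9 were used.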

Additional observations from a re-analysis of the deposited data

Results flagged for a closer look

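Among 199 named genes and lists looked at in the 4 water-treated mice, 13 had 1 mouse set apart from the other 3 by Dixon's ratio of gap to range, where chance alone sets apart about 1 in 20. Water replicate 3, a male of cage a, was the mouse apart for *Cd72* (ratio 0.864, 1.08 TPM against 6.09 to 7.60), *Laptm5* (0.937), *Cyp2c68* (0.901), *Cyp4f40* (0.906), *Hoxa9* (0.854), the S phase list (0.911) and the progenitor 1 list (0.907), and it was low in both lists. Replicate 1 was apart for *Iglc1* (0.852, 6499 TPM against 767 to 1053), and alone above 0 for *Saa3* and *Defb37* (a ratio of 1 in both). Replicate 2 was apart for *Icam1* (0.865), and replicate 4 for *Fam57a* (0.835) and for the neutrophil list (0.947), where it was high.

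A pair of genes was called for a difference in the DSS response between genotypes. *Dus2*, a tRNA dihydrouridine synthase, had a difference of 2.21 (knockout response minus control response, log2 scale, adjusted p = 0.00166): it was at 4.05 to 4.75 TPM in the water-treated and 2.48 to 3.12 TPM in the DSS-treated controls, and listed near 0 in all 5 water-treated mice labelled knockout against 1.60 to 3.00 TPM in the 4 after DSS. *Trp53*, the gene of p53, had a difference of -3.63 (adjusted p = 0.0424 in limma). It was at 14.5 to 21.3 TPM after water and 16.5 to 21.9 TPM after DSS in the controls. In the mice labelled knockout it was at 15.5 to 26.2 TPM after water and at most 3.44 TPM after DSS. The *Trp53* call was lost with the smaller pseudocount, with the stricter minimum level and on TPM as deposited. Levels of both genes are those of principal isoforms alone, and whether their other isoforms changed was not tested.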

How the results depend on the processing

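Of the 125 called genes named in the text, all kept their direction with each mouse left out in turn, and 56 also kept their call in all 7 such fits. With female mice alone 62 were called and all 125 kept their direction. Leaving out 1 mouse gave 32 to 1059 genes higher and 375 to 1540 lower, 27 to 345 at least 2-fold higher and 362 to 1009 at least 2-fold lower, the extremes being DSS replicates 2 and 3. By mouse, the higher and lower calls were 87 and 538 without water replicate 1, 78 and 532 without replicate 2, 115 and 765 without replicate 3, 72 and 556 without replicate 4, and 59 and 696 without DSS replicate 1. Females alone gave 52 higher and 437 lower (52 and 436 at least 2-fold), and sex as a covariate 70 and 468 (62 and 455). One fit over all 4 groups gave 831 and 1379 (171 at least 2-fold higher). On ranks 472 were higher. TPM as deposited gave 1988 higher (554 at least 2-fold), with a median of all genes of 0.32, and quantile normalization gave 493 (204 at least 2-fold), with a median of 0.17. Factors from pan-epithelial genes gave 80 higher (64 at least 2-fold). With a mean of at least 5 TPM, fewer genes were tested and 476 were at least 2-fold lower. A pseudocount of 0.1, no filter, and factors over the 7 control mice or without the listed genes left all 4 counts within 1.5 times. The cause of these shifts was not tested, beyond the fewer genes or mice. The genotype difference was called for 1 gene (*Dus2*) with a pseudocount of 0.1 or on TPM as deposited, and for 0 genes at a mean of at least 5 TPM by limma (321 at an unadjusted p under 0.05).

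Mice that share a replicate number were not the same animal, and over genes their departures from their own group mean hardly correlated (r = -0.024, 0.033 and 0.048 for numbers 1, 2 and 3), so the numbers do not pair the mice. With that number entered as a block, 19 genes were higher and 327 lower, all of them at least 2-fold.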
